A study of Homo sapiens with 15 samples.

Results

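The 8 genes described here are TMT1A (Entrez 25840), HPGD (3248), CYP39A1 (51302), RETREG1 (54463), TRIM29 (23650), SELENOP (6414), MATN2 (4147) and MSLN (10232), 8 of 12149 genes named on the arrays. They were chosen by their measured levels, which were higher in T4 breast cells given reverting agents than in T4 cells with none. All 8 passed the filter on dim genes, which left 9111 genes for testing, and they were covered by 18 probe sets in all. Where a gene had several, the brightest on average stands for it. The choice used the T4R and T4 samples defined below, and for TMT1A, MATN2 and MSLN also the order against S1, so those values are given as descriptions without a test. For the other members, tests against S1 share samples with that choice, which favoured low T4 and high T4R levels. Their p-values do not allow for this.

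HMT3522 is a human breast epithelial progression series. In the 9 T4R samples, malignant T4 cells had been given 1 of 9 agents and are labelled as reverted. Protease agents were the metalloproteinase inhibitor GM6001, TNF protease inhibitor-2 and a compound against MMPs and ADAMs (the MMP/ADAM inhibitor below). The other agents were the MAPK pathway inhibitor PD98059, the PI3K inhibitor LY294002, dominant-negative Rap1, the EGFR kinase inhibitor Tyrphostin AG 1478, the EGFR antibody mAb225 and the β1-integrin antibody AIIB2. The 3 T4 samples are the malignant cells with no agent named, and the 3 S1 samples are the nonmalignant cells of the series. All were grown in a laminin-rich matrix in 3 dimensions and measured on Affymetrix arrays. T4 and S1 are 1 line each, and the sources used here give no dose or time and do not say which samples received vehicle. Whether a group's samples were grown as independent cultures is also not stated. The p-values therefore cover the variation among these particular arrays, which within T4 and S1 may be technical, and the number of arrays limits precision. The main fit treats the 9 agents as samples of 1 group. Differences between agents therefore enter the spread behind every standard error, also that of T4 over S1.

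The values came as a pair of tables for different array types, and this bears on every comparison. The first table held LY294002, GM6001 and the MMP/ADAM inhibitor, all 3 T4 samples and S1 samples 1 and 2. The second held the other 6 agents and S1 sample 3, and no T4 sample. Sample levels, and the order of samples by them, are given without table adjustment unless stated. Sample medians lay between 7.33 and 7.40 log2 units. Of 7 measured epithelial markers, KRT14 and KRT5, keratins of basal epithelium, were bright throughout (13.6 to 14.5 and 13.1 to 14.1), while KRT19 was dim in every sample (6.52 to 6.78). Of 13 measured markers of leukocytes, endothelium, fibroblasts, fat and muscle, 9 lay below the median of every sample, including PTPRC, PECAM1 and CDH5. Their summed log2 level was 92.9 to 95.8 in T4R, 93.3 to 93.9 in T4 and 91.6 to 92.3 in S1, and COL1A1 was the brightest of them by its group means, at 9.72, 8.94 and 8.05 in the same order. CD14 and COL1A1 were called higher in T4R than in S1, and the part of such cells in the members' levels was not tested. In bulk samples, fewer cells of a type and less RNA per cell cannot be told apart. Within groups, T4 sample 3 and S1 sample 3 stood apart from samples 1 and 2 of their lines, in the members too. T4 sample 3 was the lowest T4 sample for all 8 members, and for 4 of them by over 1 log2 unit, as for 2.11% of the genes tested. The choice of members favoured low T4 values, so nothing is read from that count. S1 sample 3 was the lowest S1 sample for all 8, for 5 by over 1 unit, as for 2.89% of the genes tested.

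The members do unlike work in the cell. TMT1A encodes a methyltransferase of endoplasmic reticulum membranes that methylates thiol groups, HPGD the dehydrogenase that inactivates prostaglandin E2, and CYP39A1 a cytochrome P450 that hydroxylates oxysterols on the way to bile acids. RETREG1 is a receptor that hands endoplasmic reticulum to autophagosomes. TRIM29 is a tripartite-motif protein abundant in basal and stratified epithelia. SELENOP is the secreted carrier of selenium, MATN2 a matrilin of the pericellular matrix, and MSLN (mesothelin) a surface glycoprotein tethered by a lipid anchor that binds the mucin MUC16.

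Promoter sequences were available from RefSeq for 5 members, on GRCh38.p14, as 250 bases before and 50 after an annotated start. Those of 3 members are shown because the expression results turn on them: SELENOP varied most between agents, TMT1A differed most between T4R and T4, and HPGD was lower in T4 than in S1. Capitals mark matches, on either strand, to one of the motifs searched. The FOXO motif was GTAAACA and the AP-1 motif was TGANTCA. The TATA box was searched with the letters TATAAA and the GC box with the letters GGGCGG. The last pair of HPGD matches overlaps.
SELENOP, chr5:42811843-42812142, minus strand: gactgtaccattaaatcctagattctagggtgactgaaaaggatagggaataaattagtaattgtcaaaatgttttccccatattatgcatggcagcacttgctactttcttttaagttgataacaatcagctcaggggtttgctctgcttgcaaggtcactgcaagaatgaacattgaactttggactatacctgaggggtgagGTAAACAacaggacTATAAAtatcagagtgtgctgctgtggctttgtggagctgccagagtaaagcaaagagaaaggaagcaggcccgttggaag
TMT1A, chr12:50924765-50925064, plus strand: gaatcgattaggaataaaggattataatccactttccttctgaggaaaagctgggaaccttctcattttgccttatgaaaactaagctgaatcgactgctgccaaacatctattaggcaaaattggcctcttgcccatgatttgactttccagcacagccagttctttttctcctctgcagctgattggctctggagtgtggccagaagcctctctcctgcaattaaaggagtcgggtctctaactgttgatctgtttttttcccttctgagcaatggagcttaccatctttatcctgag
HPGD, chr4:174522439-174522738, minus strand: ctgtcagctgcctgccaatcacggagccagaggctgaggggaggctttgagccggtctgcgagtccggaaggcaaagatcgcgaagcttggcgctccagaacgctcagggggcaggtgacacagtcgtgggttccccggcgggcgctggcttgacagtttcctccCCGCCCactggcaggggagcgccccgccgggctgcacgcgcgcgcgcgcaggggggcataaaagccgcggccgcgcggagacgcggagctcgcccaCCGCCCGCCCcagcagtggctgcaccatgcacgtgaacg
The SELENOP promoter held a FOXO match that began 45 bases and a TATA box match that began 31 bases before the start. The FOXO letters were found in 3.42% and the TATA box letters in 11.5% of 35116 promoters of the same length. The TMT1A window held none of the 4 motifs. The HPGD window shown held 3 GC box matches, letters found in 45.0% of promoters, and its GC content was 71.0%, against 42.0% for SELENOP, 43.7% for TMT1A and a median of 58.7% over all promoters. AP-1 letters, found in 7.71% of promoters, were in none of the 7 windows listed for the 5 members. RETREG1 and CYP39A1 each had a window with GC box matches only, 5 and 1 of them, and a second window of RETREG1 and of HPGD held no match. A match is a run of letters and not a shown binding site.

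TMT1A was the gene with the largest difference between T4R and T4 of all 9111, and it did not reach the S1 level in any T4R sample. It ranged over the agents between 10.85 (dominant-negative Rap1) and 12.40 (mAb225), with a median of 12.21 log2 units. The T4 samples had 8.73, 9.94 and 7.02, and the S1 samples 12.87, 12.86 and 12.77. All 9 T4R samples lay above every T4 sample and below every S1 sample. The fitted difference of T4R over T4 was 3.44 ± 0.54 log2 units (SE), which is 10.9-fold, that of T4 over S1 was -4.32 ± 0.58 and that of T4R over S1 was -0.88 ± 0.48. Without T4 sample 3 the difference of T4R over T4 was 2.67. A dimmer probe set of the gene gave 0.93 ± 0.34 for T4R over T4 and placed T4 sample 3 highest of the T4 samples at 8.46, where the brighter one placed it lowest. Another was dim (mean 6.98) and gave 0.16 ± 0.12. For T4 over S1 the same pair gave -1.97 and -0.27, and the mean of all probe sets gave -2.19, so the sizes given first are those of 1 probe set.

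HPGD was higher with the agents than in T4, but the T4R samples stayed below S1 in the first table. The T4R samples ranged between 7.79 (TNF protease inhibitor-2) and 9.63 (LY294002) with a median of 9.001, the T4 samples had 8.32, 8.28 and 6.93, and the S1 samples 10.62, 11.58 and 8.92. It was the member whose T4R and T4 samples overlapped, as TNF protease inhibitor-2 lay below T4 samples 1 and 2. That overlap runs across the tables, since this agent is in the second and T4 in the first. After the fitted table effect was taken off, the agent stood at 9.01, above every T4 sample. The fitted T4R over T4 difference was 1.93 ± 0.42, or 3.82-fold. HPGD was 7.64-fold lower in T4 than in S1 (-2.93 ± 0.46, adjusted p from limma's fit over all genes = 0.000447), and its 4 probe sets gave -2.93, -2.56, -2.52 and -1.97. For T4R over T4 they gave 1.93, 1.62, 1.47 and 0.90. T4R over S1 was -0.998 ± 0.38 (95% interval -1.81 to -0.18, adjusted p = 0.0741). In the first table that difference was -1.53, with T4R at 9.52 to 9.63, and in the second -0.26, with T4R at 7.79 to 9.38 around S1 sample 3. The fitted effect of the second table on HPGD was -1.22 (adjusted p = 0.0242), as part of the 17.9% of genes called between tables. It rests on different agents in each table and on S1 sample 3 against S1 samples 1 and 2. Array type cannot be told apart from these differences between samples. In a fit over every probe set, added once the data were seen, the other 3 gave -0.94, -1.06 and -1.07 for T4R over S1 (adjusted p = 0.0731, 0.0206 and 0.0192), and the one used had an adjusted p of 0.108. T4R over S1 passed under 7 of 25 alternative settings, with adjusted p from 0.000649 to 0.304 over all of them. Leaving out S1 sample 3 (adjusted p = 0.0357), T4 sample 3 (0.0372) or AIIB2 (0.0454) gave a call.

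CYP39A1 with the agents lay near S1 in the first table and above S1 sample 3 in the second. T4R ranged between 8.63 (AIIB2) and 9.54 (dominant-negative Rap1) with a median of 9.06, T4 had 8.15, 8.41 and 6.77, and S1 had 8.997, 9.46 and 7.54. Without table adjustment all T4R samples lay above every T4 sample, and 2 lay above every S1 sample. After the fitted table effect was taken off, PD98059 (9.51), Tyrphostin AG 1478 (9.59), TNF protease inhibitor-2 (9.65) and mAb225 (9.78) also lay above every S1 sample. GM6001, LY294002 and AIIB2 stayed below S1 sample 2. The fitted difference of T4R over T4 was 1.81 ± 0.37 (3.50-fold) and 1.31 without T4 sample 3. That sample (6.77) lay below the lower quartile of its array (6.89), so whether it was above background is not known. T4 over S1 was -1.13 ± 0.40 (adjusted p = 0.051), and -0.95 (adjusted p = 0.000337) with sample numbers and table as blocks. That block fit used S1 and T4 samples alone and drew nothing from sample 3 of either line. Its p-value is not comparable with that of the main fit. In the main fit T4 over S1 passed without S1 sample 3 (-1.45, adjusted p = 0.0132), T4 sample 2 (0.0233), LY294002 (0.0491) or dominant-negative Rap1 (0.0325). The adjusted p ranged from 0.000337 to 0.239 over 27 alternatives. T4R over S1 was 0.68 ± 0.33 (95% interval -0.03 to 1.39, adjusted p = 0.164). It was 0.14 in the first table and 1.43 in the second, where S1 sample 3 stands alone for S1.

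RETREG1 was lower in T4 than in S1, and, without table adjustment, the T4R samples lay between the means of both lines. T4R ranged between 9.14 (TNF protease inhibitor-2) and 10.21 (the MMP/ADAM inhibitor) with a median of 9.51, T4 had 8.01, 8.41 and 7.10, and S1 had 10.74, 10.78 and 9.36. By these levels the T4R samples lay above every T4 sample, none lay above S1 samples 1 and 2, and 2 lay below S1 sample 3. After the fitted table effect was taken off, dominant-negative Rap1 alone lay above S1 samples 1 and 2, at 10.79 against 10.74 and 10.78. The fitted T4R over T4 difference was 2.20 ± 0.32, or 4.599-fold. RETREG1 was 6.37-fold lower in T4 than in S1 (-2.67 ± 0.35, adjusted p = 0.000116), a call kept under all 27 alternatives. These reuse the T4 values that entered the choice of members. T4R over S1 was -0.47 ± 0.29 (95% interval -1.09 to 0.15, adjusted p = 0.275). It was -0.89 in the first table and 0.11 in the second. Without T4 sample 3 and S1 sample 3 together, an alternative added once the data were seen, T4R over S1 passed at -0.89 (adjusted p = 0.0313), against adjusted p of 0.00321 to 0.539 over all alternatives. The other bright probe set gave 2.15 ± 0.25 for T4R over T4, and a dim pair (means of 6.70 and 6.69) gave 0.05 and 0.20.

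TRIM29 was the brightest member, and leaving out T4 sample 3 lowered its difference by the largest share. T4R ranged between 12.60 (GM6001) and 13.49 (AIIB2) with a median of 12.94, T4 had 11.56, 12.17 and 9.41, and S1 had 12.86, 12.71 and 11.95. All T4R samples lay above every T4 sample, and 5 of 9 above every S1 sample, those 5 all in the second table. T4R over T4 was 1.83 ± 0.50 (3.57-fold) and 1.02 without T4 sample 3. T4 over S1 was -1.42 ± 0.53 (adjusted p = 0.0638), and -0.92 (adjusted p = 0.00366) with the replicate block and the table. That block fit used S1 and T4 samples alone and drew nothing from sample 3 of either line. Its p-value is not comparable with that of the main fit. In the main fit leaving out S1 sample 3 gave a call (adjusted p = 0.0322), as did leaving out T4 sample 2 (0.012). The adjusted p ranged from 0.00325 to 0.213 over 27 alternatives. T4R over S1 was 0.41 ± 0.44 (95% interval -0.54 to 1.36, adjusted p = 0.561). It was -0.12 in the first table and 1.15 in the second, where S1 sample 3 stands alone for S1. Another bright probe set gave 1.86 ± 0.40 for T4R over T4 and -1.37 for T4 over S1. In the fit over every probe set, added once the data were seen, it passed for T4 over S1 (adjusted p = 0.0455). The probe set used did not pass in that fit (0.094). A dim one (mean 6.84) gave 0.07 for T4R over T4 and -0.01 for T4 over S1.

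SELENOP was higher in T4R than in both lines without agents, but its call over S1 was not kept under every alternative. T4R ranged between 7.54 (AIIB2) and 9.75 (dominant-negative Rap1) with a median of 8.78, T4 had 6.98, 7.36 and 6.59, and S1 had 7.97, 8.45 and 6.87. The T4R samples lay above every T4 sample, and 7 of 9 above every S1 sample. T4R over T4 was 2.19 ± 0.43, and T4 over S1 was -0.99 ± 0.46 (adjusted p = 0.129). The 3 T4 values lay below the medians of their arrays (7.37, 7.36 and 7.36), and T4 sample 3 also below its lower quartile (6.89). No detection calls were used here, so whether SELENOP was above background in T4 is not known and no fold over T4 is given. S1 sample 3 (6.87) also lay below its lower quartile (6.90), which limits the fold over S1. With the replicate block and the table T4 over S1 was -1.04 (adjusted p = 0.000177). That block fit used S1 and T4 samples alone and drew nothing from sample 3 of either line. Its p-value is not comparable with that of the main fit. Without dominant-negative Rap1 the adjusted p of the main fit was 0.0425, within 0.000177 to 0.395 over 27 alternatives. SELENOP was 2.29-fold higher in T4R than in S1 (1.19 ± 0.38, adjusted p = 0.0366), at 0.79 in the first table and 1.75 in the second. That call ended without S1 sample 1 (adjusted p = 0.0896), S1 sample 3 (0.304), GM6001 (0.0638), the MMP/ADAM inhibitor (0.0588) or TNF protease inhibitor-2 (0.0504). It also ended in the first table alone (0.0566), with no table block (0.102) and without T4 sample 3 and S1 sample 3 together (0.283), so that 17 of 25 alternatives kept it (adjusted p from 0.00946 to 0.304). In the fit over every probe set, added once the data were seen, the SELENOP probe set did not pass either (adjusted p = 0.0557).

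MATN2 and MSLN were higher in all T4R samples than in any sample of either line without agents. For MATN2, T4R ranged between 9.50 (dominant-negative Rap1) and 10.64 (Tyrphostin AG 1478) with a median of 10.05, T4 had 7.67, 7.97 and 7.16, and S1 had 7.63, 7.63 and 6.89. T4 and S1 overlapped and all T4R samples lay above both. Every T4R sample above every S1 sample was found for 8.13% of genes tested, and every T4R sample below every S1 sample, as for TMT1A, for 7.46%. T4R over T4 was 2.44 ± 0.33 (5.42-fold), T4R over S1 was 2.67 ± 0.30 (6.38-fold) and T4 over S1 was 0.23 ± 0.36. For MSLN, T4R ranged between 10.36 (LY294002) and 11.69 (PD98059) with a median of 11.14, T4 had 9.88, 9.87 and 9.18, and S1 had 8.09, 7.95 and 6.64. The 3 groups did not overlap, with S1 lowest and T4R highest. T4R over T4 was 1.39 ± 0.38 (2.63-fold), T4 over S1 was 2.14 ± 0.40 (4.41-fold) and T4R over S1 was 3.53 ± 0.33 (11.6-fold), the largest difference of T4R over S1 among all genes tested. In the first table alone MSLN was higher by 2.67 and in the second by 4.75 in T4R over S1, with S1 sample 3 at 6.64. For both genes S1 sample 3 lay below the lower quartile of its array (6.90). Whether it was above background is not known, which limits the folds over S1.

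**Figure D1:**
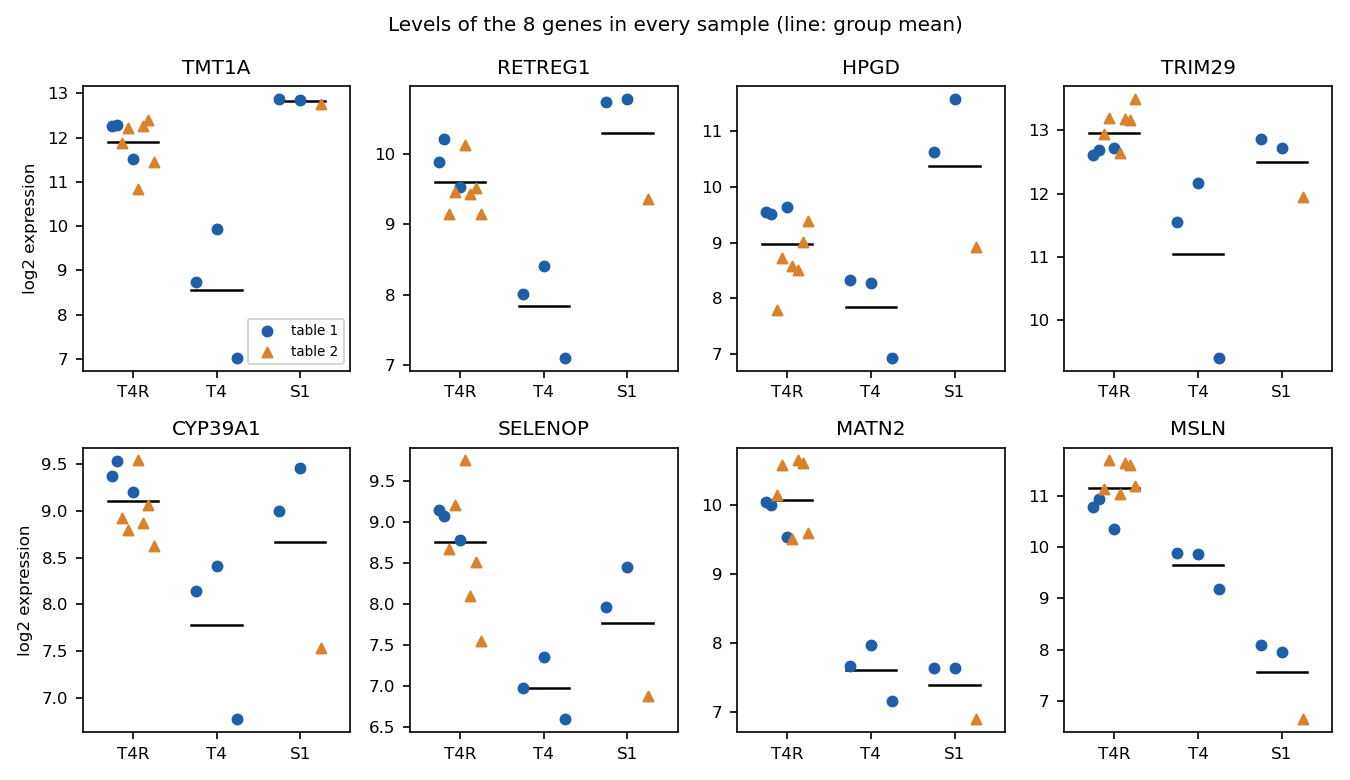
Log2 expression of the 8 genes in every sample, in T4R (9 agents), T4 (3) and S1 (3), with a line at each group mean and the symbol giving the value table. All T4R points lie above all T4 points except for HPGD, where TNF protease inhibitor-2 (7.79) lies among the T4 samples. Levels are not table-adjusted, and that agent is in the second table, which holds no T4 sample.

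Set side by side, the members differ in where S1 lies. By rank of the fitted difference of T4R over T4 among 9111 genes, TMT1A was at 1, MATN2 at 5, RETREG1 at 6, SELENOP at 8, HPGD at 15, TRIM29 at 16, CYP39A1 at 17 and MSLN at 53. In 7 of 8 members every T4R sample lay above every T4 sample without table adjustment, as did 6.76% of all genes tested. In the fit, 6.46% of genes were called higher in T4R than in T4. The rule used that contrast, so nothing is read from the members' share. T4 against S1 shares the T4 samples with the choice of members, which favoured low T4 levels. There 2 of the 5 members open to a test, RETREG1 and HPGD, were called lower, against 12.3% of genes tested. Nothing is read from that share. The fitted T4 over S1 median was -1.28 over the 8 members and 0.01 over all genes. For T4R against S1, which shares the T4R samples, 1 of the 5, SELENOP, was called higher, against 11.8% of genes, and none was called lower, against 11.4% (23.2% in either direction). The median of T4R over S1 was 0.55 over the 8 members and 0.00 over all genes. The choice favoured low T4 and high T4R levels, so nothing is read from the members' medians or from this share.

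**Figure D2:**
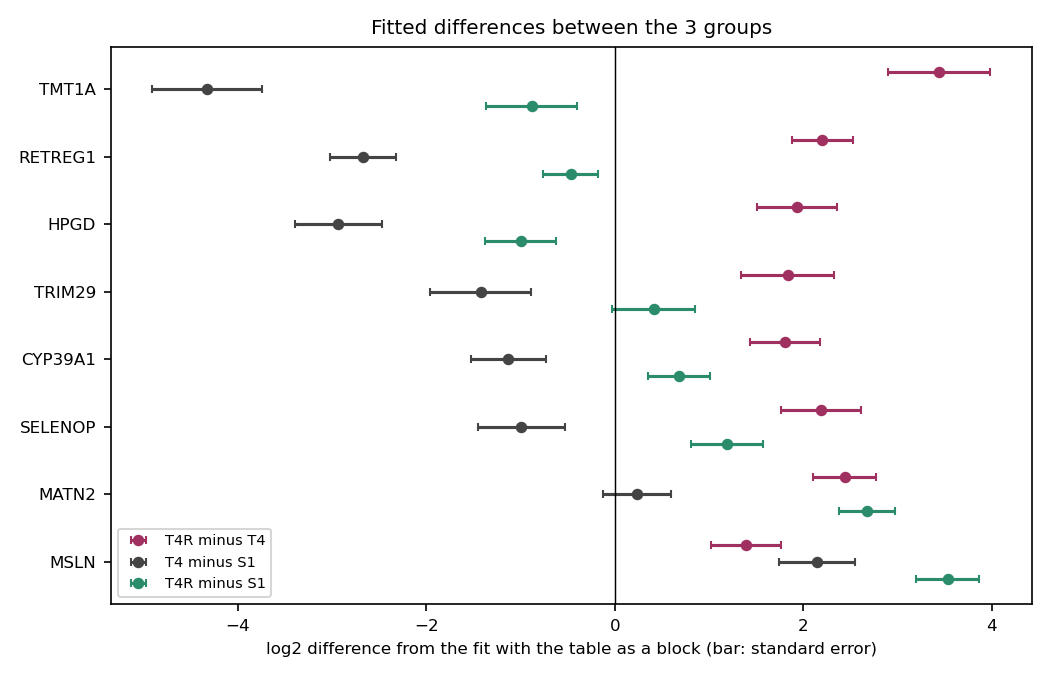
Fitted log2 differences of T4R over T4, T4 over S1 and T4R over S1 for the 8 genes, with bars for the standard error. TMT1A, RETREG1 and HPGD have negative T4 over S1 differences of -2.67 or beyond, MATN2 lies near 0 (0.23), and MSLN alone is clearly positive (2.14).

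Leaving out T4 sample 3 lowered the difference of T4R over T4 in every member, to between 1.02 (TRIM29) and 2.67 (TMT1A), and none changed sign. With all samples the span was 1.39 to 3.44. Within the first table, where T4R and T4 share the array type, the 3 agents exceeded the mean of T4 samples 1 and 2 by 2.69 for TMT1A, 2.04 for MATN2, 1.83 for SELENOP, 1.66 for RETREG1 and 1.26 for HPGD. The same difference was 1.09 for CYP39A1, 0.81 for MSLN and 0.80 for TRIM29, so 6 of 8 members stayed above 1 log2 unit there. SELENOP and MATN2 moved least when T4 sample 3 was left out, and TRIM29 and TMT1A most.

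**Figure D3:**
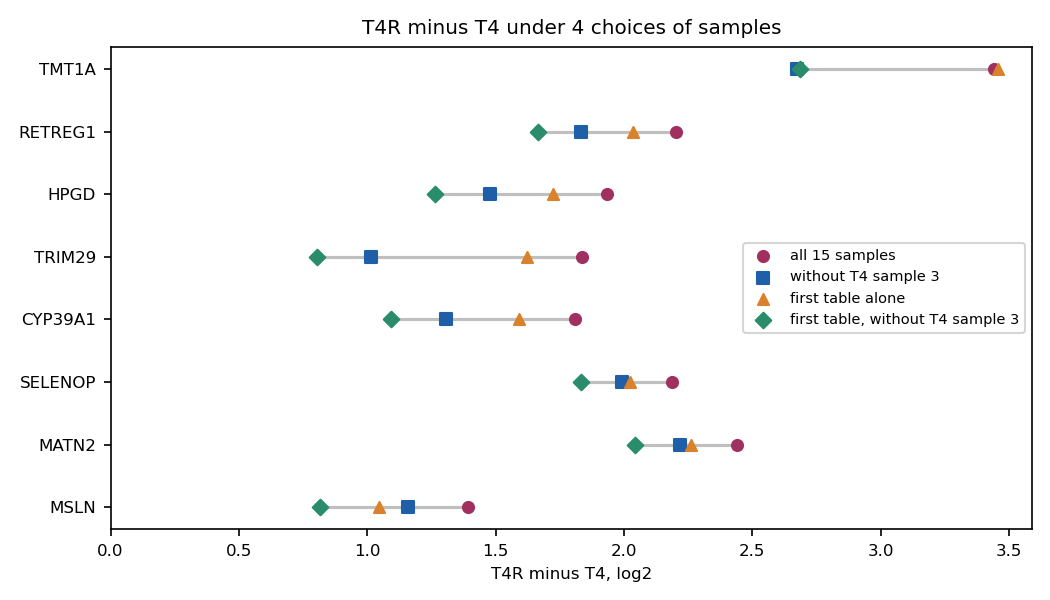
T4R minus T4 in log2 units for each gene from all 15 samples, without T4 sample 3, from the first table alone and from the first table without T4 sample 3. TRIM29 spans 0.80 to 1.83 and TMT1A 2.67 to 3.46, and all values stay above 0.

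The order of the agents differed between members. After the table effect was taken off, the agent furthest above the T4 mean was mAb225 for TMT1A (4.0004), dominant-negative Rap1 for SELENOP (3.39), RETREG1 (2.94) and CYP39A1 (2.48), AIIB2 for HPGD (2.76) and TRIM29 (2.33), Tyrphostin AG 1478 for MATN2 (2.99) and PD98059 for MSLN (1.87). Dominant-negative Rap1 was also the lowest agent for TMT1A (2.44), MATN2 (1.85) and TRIM29 (1.48). LY294002 was lowest for RETREG1 (1.69), CYP39A1 (1.43) and MSLN (0.72), AIIB2 for SELENOP (1.18) and TNF protease inhibitor-2 for HPGD (1.16). SELENOP had the widest spread between agents (2.20) and TRIM29 the narrowest (0.86). Each agent had 1 sample, so these orders carry no error and no test. They also depend on the fitted table effect, and without it LY294002 was the highest agent for HPGD (9.63).

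**Figure D4:**
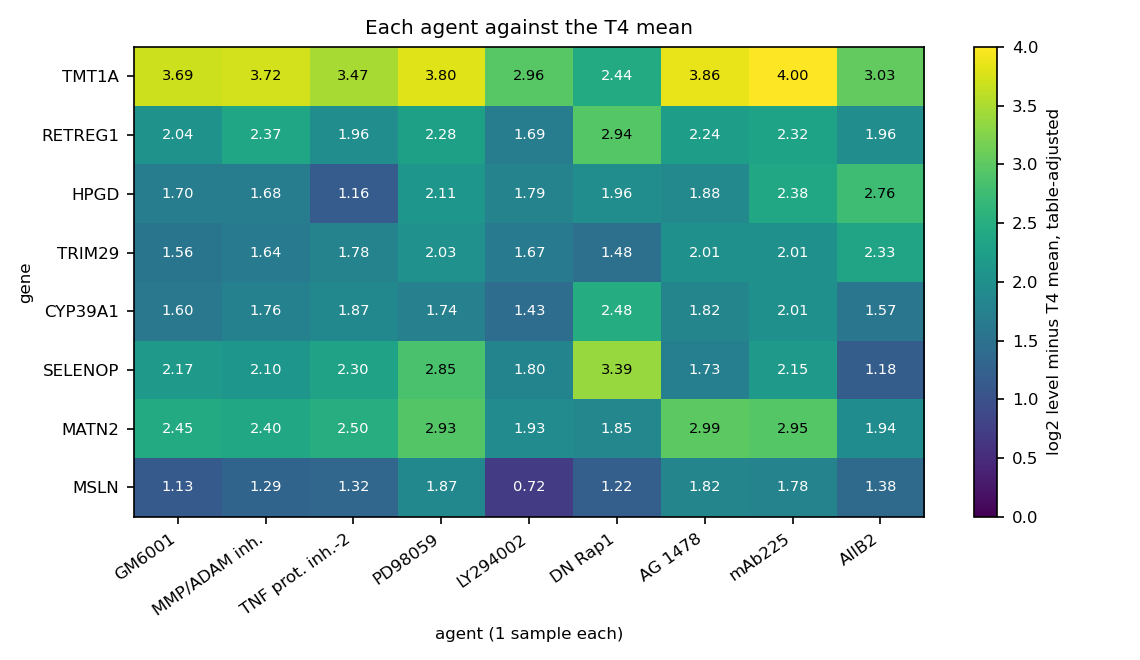
Log2 level of each gene under each agent minus the T4 mean, after removal of the fitted table effect, with 1 sample for each agent. Values run between 0.72 (MSLN with LY294002) and 4.0004 (TMT1A with mAb225), and the column of dominant-negative Rap1 holds both highest and lowest entries.

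Agents were then grouped in 3 classes of 3 by their labelled target, and this comparison did not enter the choice of members. The protease class is named above. LY294002, PD98059 and dominant-negative Rap1 made up the MAPK, PI3K and Rap1 class, in which the place of Rap1 rests on knowledge of the study rather than a label, and the EGFR and β1-integrin class held the other 3 agents. No member passed limma's moderated F-test among classes (smallest adjusted p = 0.903), nor did any of the 9111 genes (0%), with 496 of them (5.44%) at an unadjusted p under 0.05. SELENOP came closest, with an unadjusted p of 0.0539, and HPGD had 0.0907. SELENOP in the MAPK, PI3K and Rap1 class was at 1.08 ± 0.39 relative to the EGFR and β1-integrin class (95% interval 0.22 to 1.93, adjusted p = 0.891). HPGD in the protease class was at -1.10 ± 0.45 relative to the EGFR and β1-integrin class (95% interval -2.08 to -0.11, adjusted p = 0.958). None of the 24 tests of a member between a pair of classes passed (smallest adjusted p = 0.862). Over all genes, 4.45% had an unadjusted p under 0.05 between the protease and the EGFR and β1-integrin class, 5.43% between the MAPK, PI3K and Rap1 class and the EGFR and β1-integrin class, and 6.03% between the protease and the MAPK, PI3K and Rap1 class. For TMT1A the interval between the protease and the EGFR and β1-integrin class ran from -1.47 to 1.46. The EGFR and β1-integrin agents all lie in the second table.

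Levels of the members were then compared across the 9 T4R samples. Of 28 pairs, 17 had a positive Pearson r of table-adjusted levels, with a median of 0.10. TMT1A and MATN2 moved together most closely (r = 0.91, exact permutation p = 0.000168, adjusted over 28 pairs 0.00471, Spearman's rho = 0.92 with exact p = 0.00131, adjusted 0.0367). Without LY294002 and dominant-negative Rap1, the agents furthest from the TMT1A median, r was 0.90, and within the 6 agents of the second table it was 0.96. CYP39A1 and RETREG1 followed (r = 0.90, exact permutation p = 0.0028, adjusted 0.0392, rho = 0.65 with exact p = 0.0666, adjusted 0.373). Without LY294002 and dominant-negative Rap1 together r was 0.46. Within the second table, which holds dominant-negative Rap1 but not LY294002, it was 0.90. MATN2 and MSLN had r = 0.82 (exact permutation p = 0.00888, adjusted 0.0829) and rho = 0.75 (exact p = 0.0255, adjusted 0.238). The lowest r was -0.57, between SELENOP and TRIM29 (exact permutation p = 0.108, adjusted 0.336, rho = -0.47), and it was 0.26 without AIIB2 and dominant-negative Rap1. TMT1A, below S1 in every T4R sample, and MATN2, above S1 in every one, were thus ordered alike by the agents.

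**Figure D5:**
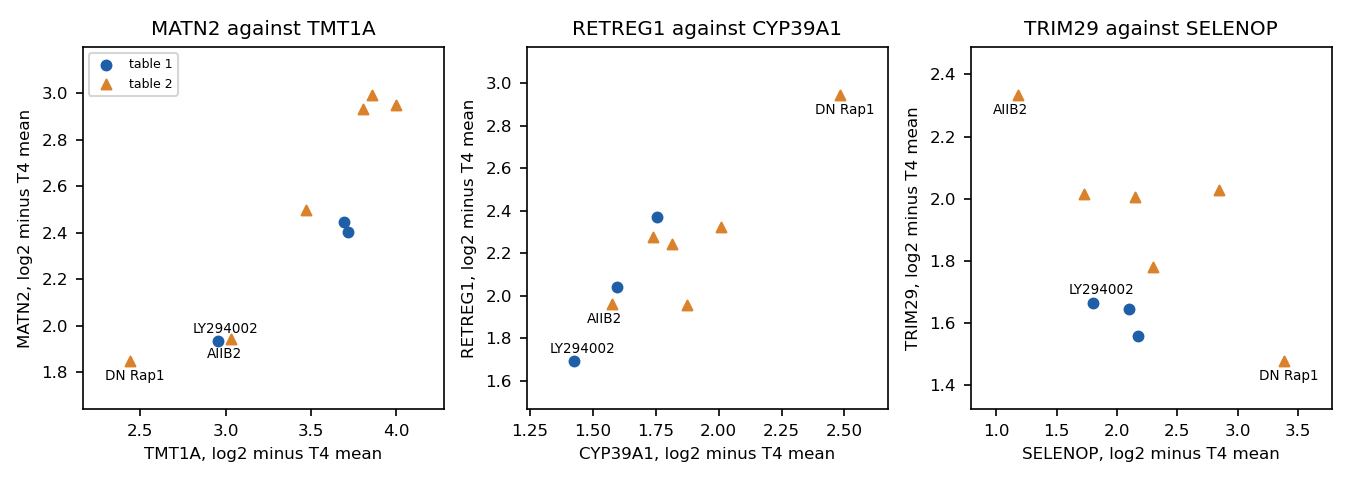
Table-adjusted log2 levels minus the T4 mean for 3 pairs of genes over the 9 agents, with symbols for the value table. MATN2 increases with TMT1A (r = 0.91), RETREG1 and CYP39A1 have r = 0.90 (0.46 without LY294002 and dominant-negative Rap1 together), and TRIM29 and SELENOP have r = -0.57, which did not pass (0.26 without AIIB2 and dominant-negative Rap1).

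For each member the 2 genes most like it were taken by Pearson r of table-adjusted levels over all 15 samples, which includes the differences between groups. MCCC1, a subunit of a leucine-degrading carboxylase, was first for both TMT1A (0.97) and RETREG1 (0.97). It was 10.06 ± 0.10 in T4R, 9.22 ± 0.27 in T4 and 10.24 ± 0.20 in S1 (SD, n = 9, 3 and 3). ACP6, a lysophosphatidic acid phosphatase, was the second for TMT1A (0.97), and PEX19, needed to build peroxisomes, the second for RETREG1 (0.95). For MATN2 they were PHYH, which starts phytanic acid breakdown in peroxisomes (0.98), and SYNJ2BP (0.97). PHYH was 10.73 ± 0.32 in T4R, 9.32 ± 0.24 in T4 and 9.31 ± 0.53 in S1, with a fitted T4 over S1 difference of -0.08 ± 0.26, beside 0.23 ± 0.36 for MATN2. IFNGR1, a chain of the interferon gamma receptor, was first for SELENOP (0.93) and CYP39A1 (0.96), followed by VPS41 (0.92) and PPCS (0.96). For TRIM29 they were SH3BGRL (0.98) and ASS1, the argininosuccinate synthase (0.97), for HPGD the histone gene H2BC21 (0.94) and UBL3 (0.94), and for MSLN the mitochondrial glutaredoxin GLRX5 (0.97) and the carbonyl reductase CBR3 (0.96). Within the 9 T4R samples alone all of these r were lower, for example 0.92 for ACP6, 0.92 for PHYH and 0.51 for MCCC1 with RETREG1.

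Most other genes of the members' pathways did not pass the test between T4R and T4. Counts are for T4R against T4 and stand beside 6.46% of all genes called higher and 8.44% called lower. Of 15 tested genes of prostaglandin metabolism and its receptors, 1 was called higher, the carbonyl reductase CBR1 (1.16 ± 0.18, adjusted p = 0.000902), and 1 lower, PTGS2, the inducible cyclooxygenase. PTGS2 was 6.70 to 6.93 in T4R, 9.63 to 10.42 in T4 and 6.61 to 6.89 in S1, with a T4R over T4 difference of -3.14 ± 0.14 (adjusted p = 2.25e-08). Its T4R and S1 levels lay near or below the lower quartiles of the arrays (6.87 to 6.91). Whether PTGS2 was above background there is not known, which limits the size of that difference and its standard error. Of 18 tested selenoprotein genes and synthesis factors, 3 were higher, MSRB1 (0.65 ± 0.12, adjusted p = 0.00235), SEPHS1 (0.46 ± 0.13, adjusted p = 0.0314) and TXNRD1 (1.25 ± 0.38, adjusted p = 0.0408). The SELENOP receptor gene LRP8 was lower (-0.91 ± 0.27, adjusted p = 0.0385). The medians of these lists were 0.02 and 0.14, against -0.00 for all genes.

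Of 20 tested genes of autophagy and endoplasmic reticulum turnover, 1 was higher, BECN1 (0.37 ± 0.07, adjusted p = 0.00402), and none lower. The relatives of RETREG1 did not pass, RETREG2 with 0.26 ± 0.16 (adjusted p = 0.329) and RETREG3 with 0.07 ± 0.13 (adjusted p = 0.775). Of 7 tested oxysterol and bile acid enzymes, 1 was higher, HSD17B4 (0.53 ± 0.14, adjusted p = 0.0214), a peroxisomal enzyme. Of 17 TRIM family genes, TRIM37 (0.48 ± 0.13, adjusted p = 0.0248) and TRIM24 (0.60 ± 0.17, adjusted p = 0.0334) were higher and TRIM2 lower (-0.40 ± 0.12, adjusted p = 0.0417). Of 6 tested small-molecule methyltransferases GNMT passed (0.25 ± 0.08, adjusted p = 0.0495), and NNMT had 1.73 ± 0.57 (adjusted p = 0.0586). GNMT lay between 6.79 and 7.21, below the median of every sample, so whether it was above background is not known. None of 13 tested genes of matrilins and pericellular matrix and none of 3 tested mesothelial and surface genes passed. The smallest p in the first of these lists was that of EFEMP2 at -0.25 ± 0.09 (adjusted p = 0.0714), followed by HSPG2, the perlecan gene, at -0.55 ± 0.21 (adjusted p = 0.0979) and EFEMP1 at 0.82 ± 0.37 (adjusted p = 0.16), and in the second that of PDPN, podoplanin, at 1.37 ± 0.45 (adjusted p = 0.0579). Of 6 tested epithelial markers EPCAM was higher (0.93 ± 0.24, adjusted p = 0.0214) and KRT18 lower (-1.07 ± 0.19, adjusted p = 0.00255), and none of 6 tested markers of other cells passed. The medians of these 8 lists ran between -0.07 (matrilins and pericellular matrix) and 0.34 (epithelial markers). The proliferation marker MKI67 was lower (-1.60 ± 0.45, adjusted p = 0.0284), and its part in the members' levels was not tested.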

How the data were processed

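The authors deposited log2 expression values per probe set in a table for each of the array types, and how these were background-corrected, summarised and normalized is not given in the sources used here. Of 22215 probe sets, 19707 named 1 gene, 614 named several and 1706 none, and 188 were named differently on the array types; symbols were updated through Entrez numbers. The brightest probe set stood for a gene and the dimmest 25% of 12149 genes were left out. limma 3.58.1 in R 4.3.3 fitted group and table (lmFit, eBayes), and a second fit split T4R into agent classes. P-values were Benjamini-Hochberg adjusted over all 9111 genes, with a threshold of 0.05, and the code was tested on simulated data. Named genes were the 8 members, for each the 2 genes with the highest r, up to 4 genes with the smallest p per list, and PTGS2, TMT1B (not among the genes tested), RETREG2, RETREG3 and MKI67 always. Members and lists were chosen with earlier results of these data known. Correlations used exact permutation tests over all pairings. The main fit did not pair samples by number, and only the replicate block alternatives took the numbers as pairs. The ground was that deviations of same-numbered S1 and T4 samples correlated at 0.28, 0.31 and 0.39, all above 0.1. However, S1 sample 1 with T4 sample 2 gave 0.31 and S1 sample 2 with T4 sample 1 gave 0.29. The values therefore do not show that samples 1 and 2 were paired by number. Alternatives covered probe sets, filters, normalization, table, array weights, the replicate block and leaving out each sample.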

Additional observations from a re-analysis of the deposited data

How the results depend on the processing

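Array weights raised the counts of genes called to 3160 (T4R against T4), 4180 (T4 against S1), 3854 (T4R against S1) and 18 (agent classes), against 1358, 2452, 2116 and 0. Leaving out each sample in turn gave 948 to 1595, 1687 to 2788, 1584 to 2412 and 0 to 10 genes, the 10 without PD98059. Leaving out T4 sample 3 and S1 sample 3 together, chosen after seeing the data, gave 1 gene between classes. The replicate block for T4 against S1 gave 3661 genes with the table and 1784 without it. It rests on numbers 1 and 2 once the table is included, and pairing by those numbers was not shown. Beside TRIM29, CYP39A1 and SELENOP it changed no other member's call; without the table it called SELENOP (-0.79, adjusted p = 0.0474) and CYP39A1 (-0.89, adjusted p = 0.0123). No called value changed sign. Of the members' values, 735 kept their call or moved within the spread, 34 gained a call, 8 lost one and 31 moved further; the cause was not tested. T4 has no sample in the second table, so its values there rest on the fitted table effect, and each agent has 1 sample.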
